A study of Arabidopsis thaliana with 2 samples.

Results

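The centromeric stretch of chromosome 3 was taken as all SNPs listed for chromosome 3 of Arabidopsis thaliana between positions 10 and 17 Mb of the TAIR10 build. It held 614 of the 40612 SNPs in the deposited list, and 614 of the 9938 SNPs of its chromosome. These are 1.51% of the list and 6.18% of the chromosome's SNPs, on 29.8% of the chromosome's length up to its last listed SNP. The stretch was chosen by its low SNP density along the chromosome, so that density is given as a description and was not tested.

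The mutation mapped by the study, potent, is dominant and came from a screen for plants in which lateral root formation is impaired. Seeds of a Col-0 line carrying the reporters DR5::Luciferase, pWOX5::ER-YFP and pSCR::ER-GFP had been treated with 50 mM ethyl methanesulfonate (EMS, a mutagen) for 12 hours. The mutant was kept heterozygous, backcrossed to its reporter line and then crossed repeatedly to the ecotype Landsberg erecta (Ler), the ecotype named for both samples. Genomic DNA came from seedlings of about 200 seeds of the fifth cross, with 1 sample of seedlings with the potent phenotype and 1 sample without it. The list is described as homozygous and names neither sample. No comparison between phenotypes and no spread between replicates could be had. It gives a chromosome and a position per SNP and no allele, so a natural variant of either ecotype and a change made by EMS look the same in it. The read depth behind each position is unknown.

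A plant centromere is a block of tandem satellite repeats on which the kinetochore assembles. It is flanked by pericentromeric heterochromatin, which is rich in transposons and their remnants and poor in active genes. Crossovers are rare there, so that sequence on both sides of a centromere is usually inherited as a block. The satellite arrays are only partly present in this reference assembly.

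The label centromeric was checked against the genes of the RefSeq annotation of TAIR10.1. Protein-coding genes were densest at both ends of the stretch and scarce in its middle. There were 114 that started in the first 500 kb and 120 in the last 500 kb, and 1 in the 500 kb just left of the rounded centromere position. Pseudogenes, the class in which this annotation places most transposon remnants of heterochromatin, ran the other way. There were 15 in the first 500 kb, 18 in the last, and 71 in the 500 kb just left of the rounded centromere position, with highest counts of 103 in a window on each side of it. The annotation thus placed the gene-poor core close to the rounded centromere position of 14 Mb, and the stretch reached gene-rich sequence on both sides.

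Over the whole stretch 87.7 SNPs were listed per Mb (95% Poisson interval 80.9 to 94.9). This interval covers counting error only, as do all intervals given here. The 28 windows of 250 kb held between 4 and 67 SNPs, with a median of 15. The 7 windows from 13 to 14.75 Mb held 4 to 11 each, or 30.3 per Mb (22.7 to 39.6), and the lowest of all was the window from 13.75 to 14 Mb. No window of the stretch was empty.

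The left side was steep. The 7 windows of 250 kb from 8 to 9.75 Mb held between 168 and 392 SNPs, the next window, from 9.75 to 10 Mb, held 66, and the first window inside the stretch held 39. In 50 kb steps the count was 53 between 9.65 and 9.7 Mb, 25 in the next step and 17 in the one after, before 10 Mb was reached. The bound at 10 Mb therefore lay inside sequence that was already sparse. From there the counts were lower again towards the centromere. They were 39, 47 and 39 up to 10.75 Mb, 20 from 10.75 to 11 Mb, and then between 4 and 18 in each of the 15 windows from 11 to 14.75 Mb. The last SNP before the stretch was at position 9997066 and the first inside it at 10016967, which lies between AT3G27150 and GHS1 (AT3G27160).

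The right side was gradual, and density did not return there to the level of the left flank. The 4 windows from 14.75 to 15.75 Mb held 14 to 27 SNPs, and the 5 windows from 15.75 to 17 Mb held 37 to 67. Beyond the bound the 7 windows from 17 to 18.75 Mb held 39 to 54, close to the last windows inside. The last SNP inside, at 16999833 in AT3G46260, and the first outside, at 17001542, were 1709 bp apart. The next higher level began at 18.75 Mb, where 5 windows held 63 to 127. In SNPs per Mb, the left flank from 8 to 10 Mb held 1010.5 (967 to 1056), and the right flank held 193 (173 to 215) from 17 to 18.75 Mb and 400 (366 to 437) from 18.75 to 20 Mb. The left flank was itself denser than the sequence just before it, which held 656 from 6 to 7 Mb and 818 from 7 to 8 Mb. An edge was also placed by going outward from 14 Mb to the first 500 kb window that held at least 50% of the median window of the rest of the chromosome on that side, before 10 Mb or from 17 Mb. That edge was 4 Mb from the centromere on the left and 2 Mb on the right, where those medians were 332.5 and 168.5 SNPs per 500 kb window.

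**Figure D1:**
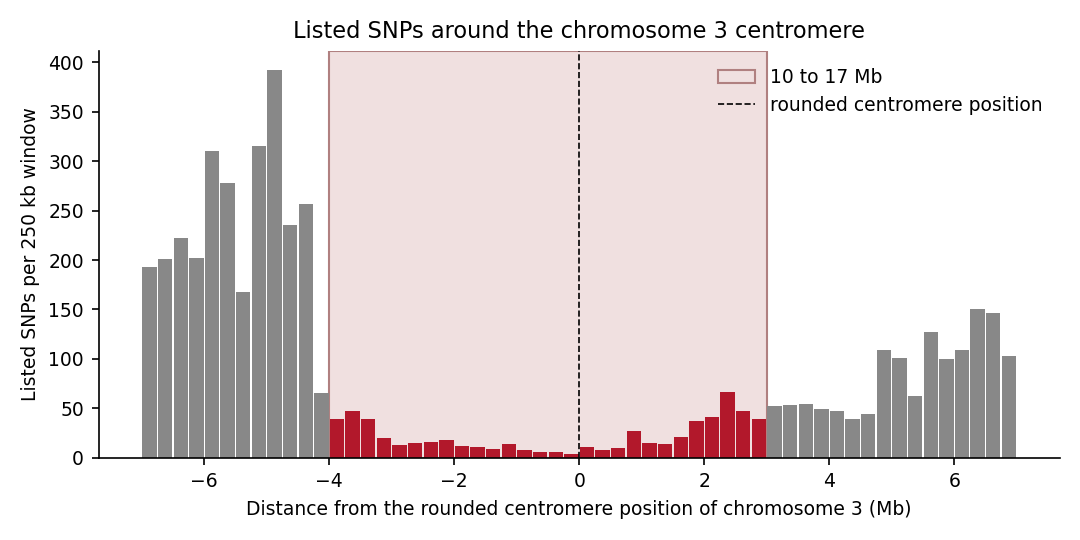
Listed SNPs per 250 kb window (bars, linear axis from 0) against distance from the rounded centromere position of chromosome 3 in Mb. Red bars in the shaded area are the 28 windows of the stretch, which held 4 to 67 SNPs; grey bars are the flanks, with 168 to 392 per window from 8 to 9.75 Mb and 39 to 54 from 17 to 18.75 Mb.

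At equal distances from 14 Mb the left side was the sparser one as far as 4 Mb out. Within 1 Mb it held 24 SNPs on the left and 56 on the right. Between 1 and 2 Mb the counts were 46 and 87, and between 2 and 3 Mb they were 62 and 194. The Poisson intervals of the sides did not overlap in any of these 3 steps, but they treat SNPs as independent. SNPs of the stretch were clumped, so all intervals for these sides are too narrow, and the difference between the sides was not tested. Between 3 and 4 Mb, where the right side is already outside the stretch, the counts were 145 and 208. Between 4 and 5 Mb the order turned, with 950 on the left and 239 on the right. Inside the stretch, the left 4 Mb held 69.25 per Mb and the right 3 Mb held 112, a ratio of 0.616 (0.524 to 0.725).

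Gaps between neighbouring SNPs were long, and most lay around the centromere. Of the 613 distances in the stretch, 19 were 50 kb or more, and together they covered 1.92 Mb, or 27.4% of it. By Mb from 10 to 17 Mb there were 1, 2, 5, 4, 5, 2 and 0 such gaps. The gap-free last Mb had a longest distance of 28.8 kb. The median distance was 3703.5 bp in the first Mb, 17991 bp between 13 and 14 Mb and 2687 bp in the last Mb. Gaps and distances depend on density, by which the stretch was chosen, so they are given as a description and were not tested.

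The longest gap was 332 kb, from 13587427 to 13919895, within 0.413 Mb of the rounded centromere position. It held 0 protein-coding genes and 34 pseudogenes. Its left SNP lay between the pseudogenes AT3G33055 and AT3G33058, and its right SNP inside the pseudogene AT3G33130, which held 2 SNPs. The next gap, of 175 kb from 12426954 to 12602360, held 8 protein-coding genes. One of them was ERD5 (AT3G30775), a proline dehydrogenase that carries out the first step of proline breakdown. This gap ended 1928 bp beyond ABCG38 (AT3G30842), a gene of the ABC transporter family, and began between the pseudogenes AT3G30760 and AT3G30763. The third, of 172 kb from 14362060 to 14533606, held 2 protein-coding genes and 38 pseudogenes and ran from between AT3G42186 and AT3G42190 to inside AT3G42420, all 3 of them pseudogenes. The list does not say which sites were callable.

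**Figure D2:**
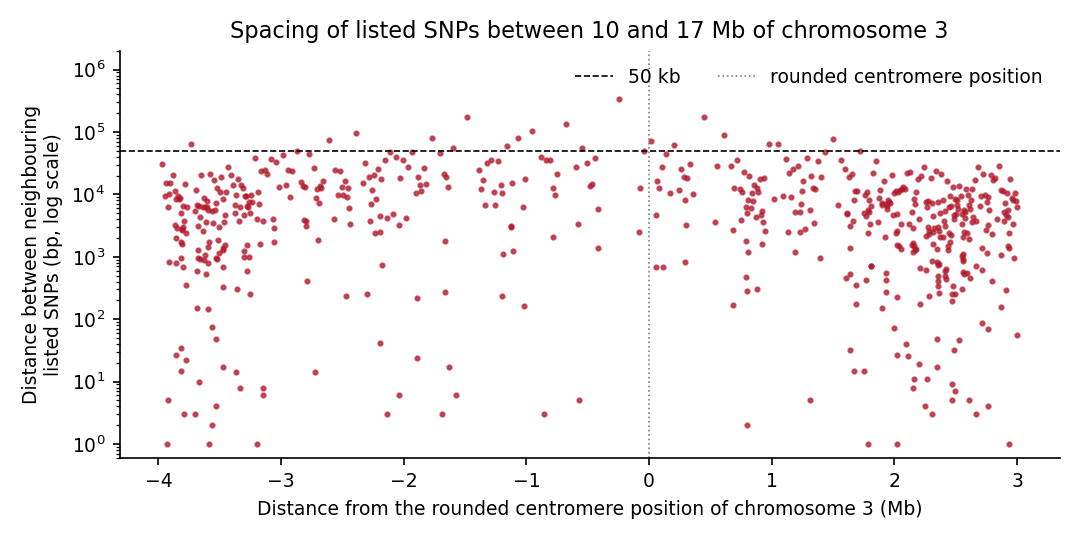
Distance between neighbouring listed SNPs in bp (log axis), each point placed at its midpoint relative to the rounded centromere position of chromosome 3 in Mb. Of the 19 points on or above the dashed line at 50 kb, which reach 332 kb, most lie towards the centre and 1 lies between 10 and 11 Mb, while points at 10 bp or less are found across the stretch.

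The SNPs of the stretch were both sparse and clumped. Broken wherever neighbours were 10 kb or more apart, the 614 SNPs fell into 199 clusters, of which 83 were single SNPs and the largest held 23. The median cluster held 2. From 13 to 14.75 Mb, 24 of 36 clusters were single SNPs and none held more than 4. From 10 to 11 Mb 12 of 31 were single, and from 15.75 to 17 Mb 8 of 40. Of 700 windows of 10 kb, 375 (53.6%) held no SNP, and the fullest held 6. A neighbour within 100 bp was found for 118 SNPs, or 19.2% (exact binomial 95% interval 16.2 to 22.6). Positions spread evenly and independently at the same density would give 1.74%. In 6 cases the SNPs were on adjacent bases.

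Very short distances made up much of this clumping. Of the 61 distances of 100 bp or less, 32 were 10 bp or less, or 52.5% (exact binomial 95% interval 39.3 to 65.4). Within 2 Mb of the centromere this share was 34.4% (29.6 to 39.4) on chromosome 2, 33.7% (30.4 to 37.0) on chromosome 4 and 30.7% (27.6 to 33.9) on chromosome 5. In the same 4 Mb of chromosome 3 it was 53.8%, from 7 of 13 distances, and its interval (25.1 to 80.8) overlapped the other 3. This share also depends on density, by which the stretch was chosen, and the limit of 10 bp was chosen after the distances were seen. No test is therefore given.

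**Figure D3:**
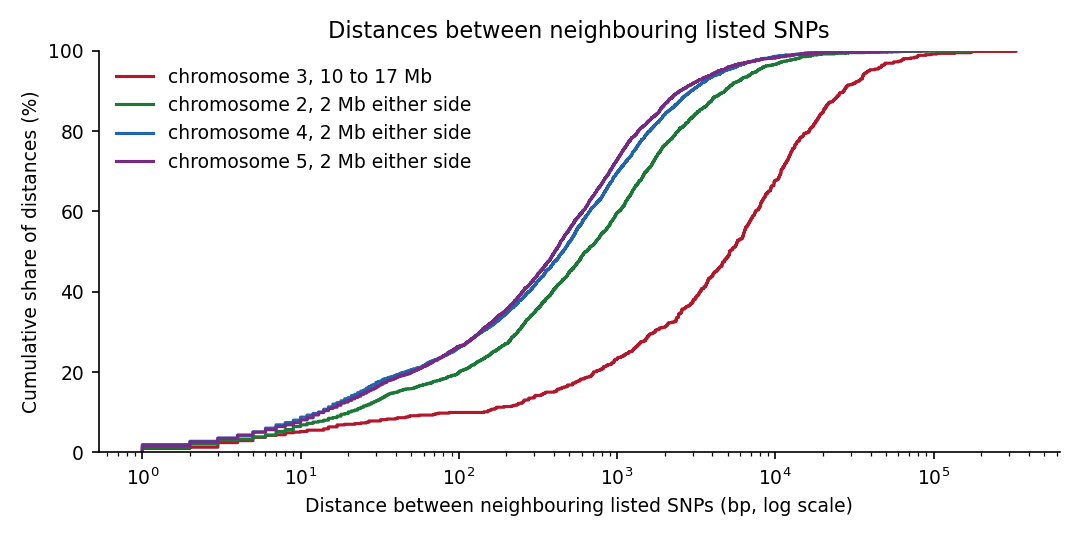
Cumulative share (%) of distances between neighbouring listed SNPs (bp, log axis) in the stretch of chromosome 3 and within 2 Mb of the centromeres of chromosomes 2, 4 and 5. The curve of the stretch lies to the right of the others at most distances and comes close to them at the shortest, with a median of 5155 bp against 637, 456 and 404.5 bp.

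The pericentromeres of chromosomes 2, 4 and 5 had no trough of this depth. On chromosomes 4 and 5 density was also lower near the centromere. Within 1 Mb of it they held 610 and 639 SNPs per Mb, against 794 and 817 within 2 Mb. The values were 40 and 53.25 on chromosome 3, and 472 and 473.5 on chromosome 2. Within 2 Mb of the centromere chromosome 3 held 213 SNPs, against 1894 on chromosome 2, 3176 on chromosome 4 and 3269 on chromosome 5. Single windows of 250 kb held 76 to 367 SNPs on chromosome 4 and 51 to 347 on chromosome 5. On chromosome 2 they held 2 to 205. The window with 2 SNPs held fewer than any window of chromosome 3, where the lowest held 4, and lay between windows with 205 and 139. Gaps of 50 kb or more numbered 16 on chromosome 3 in these 4 Mb, 7 on chromosome 2, 1 on chromosome 4 and 3 on chromosome 5. They took up 42.0%, 16.2%, 1.72% and 5.45% of the sequence. Chromosome 3 had the longest, of 332 kb, followed by chromosome 2 with 177 kb, while chromosomes 5 and 4 had none over 92.1 and 68.8 kb. Fewer SNPs leave more and longer gaps, and no number of gaps under even spacing was computed. Nothing is therefore read from the order of the chromosomes in gaps.

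**Figure D4:**
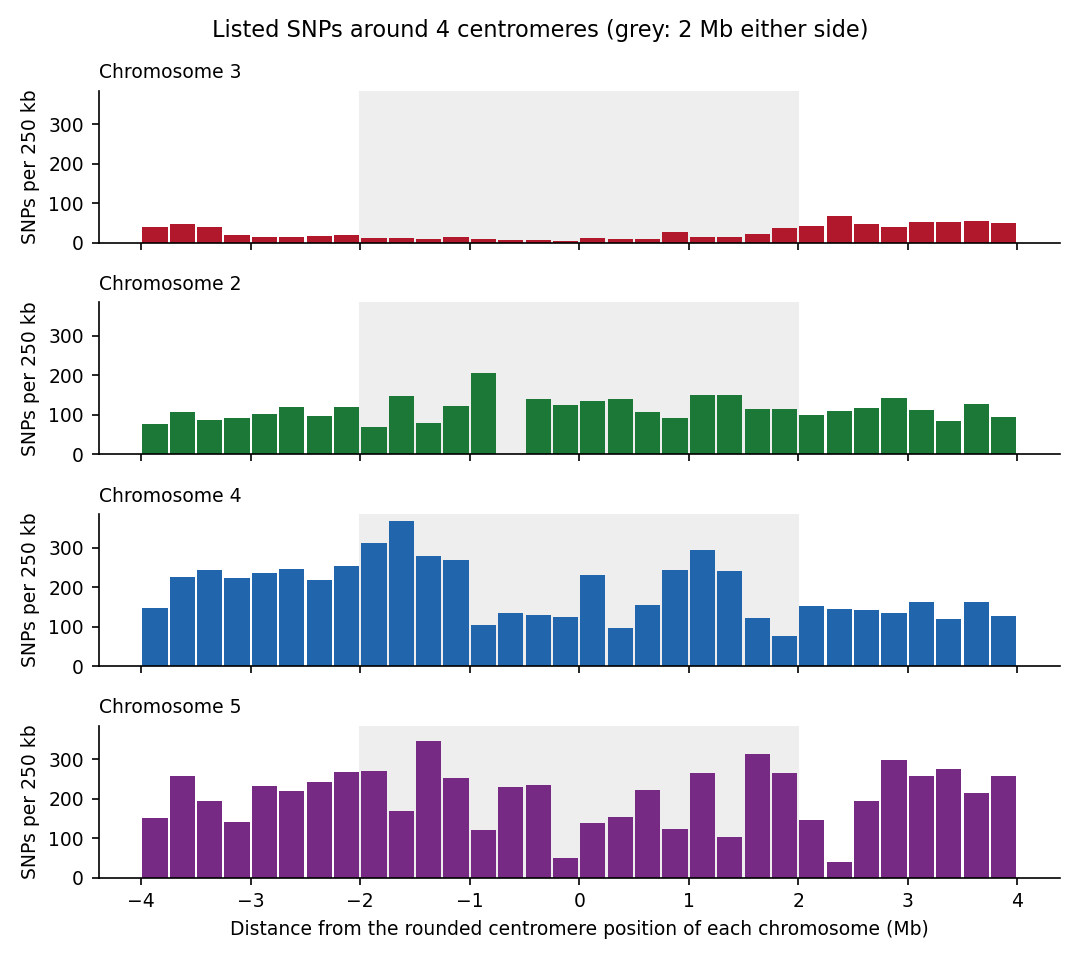
Listed SNPs per 250 kb window (bars, linear axis shared by all panels) against distance from the rounded centromere position of chromosomes 3, 2, 4 and 5 in Mb, with 2 Mb either side in grey. On chromosome 3 density decreases towards the centromere from both sides. Chromosomes 2, 4 and 5 hold medians of 124, 193.5 and 226 SNPs per window in the grey area. On chromosomes 4 and 5 density is also lower within 1 Mb of the centromere than within 2 Mb.

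Clusters were smaller on chromosome 3. The 4 Mb around the centromere held 103 clusters on chromosome 3, with a mean of 2.07 SNPs and at most 11. On chromosome 2 there were 66, with a mean of 28.7 SNPs and at most 157. Chromosome 4 had 45, with a mean of 70.6 and at most 730, and chromosome 5 had 59, with a mean of 55.4 and at most 356. Single SNPs were 23.5% of all SNPs on chromosome 3 and between 0.122% and 0.475% on the others. A neighbour within 100 bp was found for 12.2% (8.13 to 17.4) of SNPs on chromosome 3 and for 35.5%, 45.3% and 45.6% on chromosomes 2, 4 and 5. Even spacing at their densities would give 1.06% on chromosome 3 and 9.04%, 14.7% and 15.1% on the others. The observed share was therefore 11.5 times that of even spacing on chromosome 3 and 3.93, 3.09 and 3.03 times on the others. With a fixed break of 10 kb, the number and size of clusters depend on density, by which the stretch was chosen. No cluster size under even spacing was computed, so nothing is read from the smaller clusters of chromosome 3. The shares and these ratios depend on density too, and carry no test. A ratio has less room to rise where even spacing already gives a larger share, so nothing is read from the order of the ratios.

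Scarcity extended to genes. Of 751 protein-coding genes that lay wholly or partly in the stretch, 105 held at least 1 listed SNP, or 13.98% (exact binomial 95% interval 11.6 to 16.7). Over the genome 29.2% of 27444 protein-coding genes did, and nothing is read from the difference because density chose the stretch. Of the 105 genes, 80 held 1 SNP, 15 held 2 and 10 held 3 to 5. With 1 kb on either side of the gene included, the share was 34.1%, against 47% over the genome. Genes with a SNP lay towards the ends, as did protein-coding genes themselves. The first 500 kb had 24 of 114 annotated there, and the 500 kb windows from there to 12 Mb had 9 of 98, 2 of 67 and 7 of 44. The 6 windows from 12 to 15 Mb had 7 together, of 100 annotated. From 15 to 16 Mb the windows had 4 of 46 and 9 of 69, and those of the last Mb had 21 of 92 and 22 of 120.

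**Figure D5:**
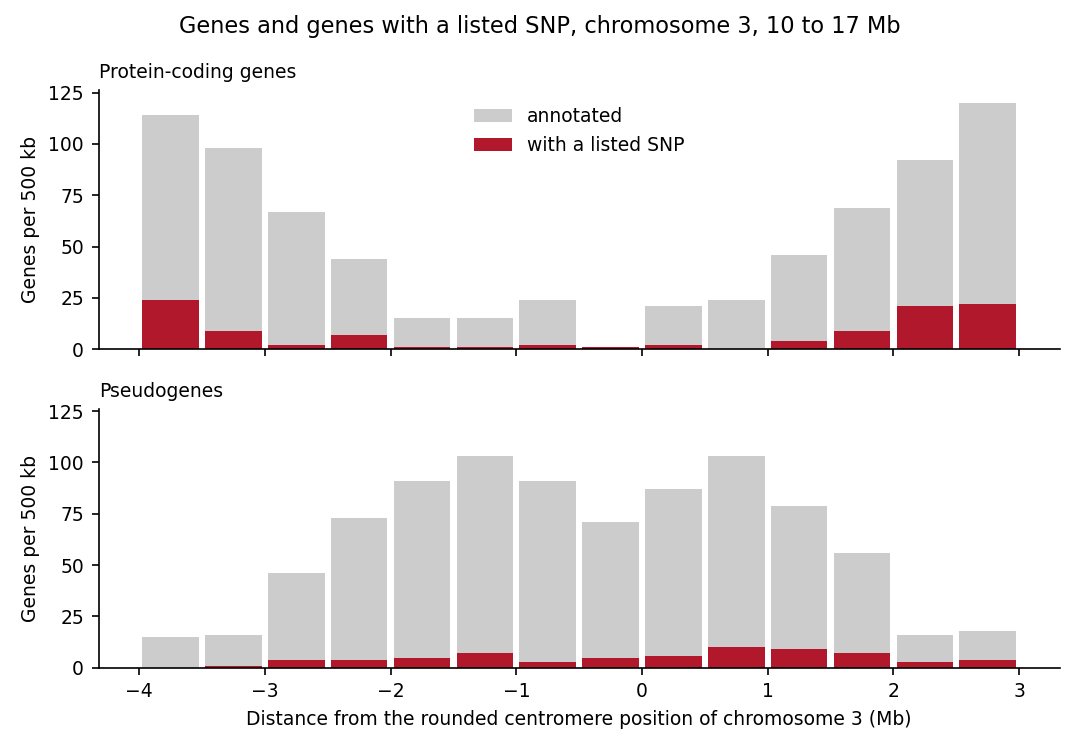
Annotated protein-coding genes (upper panel) and pseudogenes (lower panel) that start in each 500 kb window (grey bars) and those among them with a listed SNP (red bars), against distance from the rounded centromere position of chromosome 3 in Mb. Protein-coding genes run from 114 at the left end through 1 next to the centromere to 120 at the right end, and those with a SNP number at most 24 per window.

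Within the stretch, SNPs were more frequent in sequence outside annotated genes than in pseudogenes. Sequence outside every gene held 113 SNPs per Mb (102 to 125), protein-coding genes 96.8 (81.7 to 114), and pseudogenes 38.4 (30.3 to 48.0). Pseudogenes made up 28.6% of the bases and 12.5% of the SNPs, and 68 of 865 (7.86%) held one. Within 2 Mb of the centromere this share was 7.62% on chromosome 3 and 40.9%, 48.0% and 52.1% on chromosomes 2, 4 and 5. No share over all pseudogenes of the genome was computed, and nothing is read from the difference because density chose the stretch. Position along the stretch moves with the densities of these classes, since most pseudogenes lie in the sparse core. Within 2 Mb of the centromere the values were 67.5, 56.0 and 35.8 per Mb, and the intervals of sequence outside genes (56.5 to 80.1) and of pseudogenes (27.2 to 46.3) still did not overlap. Between 10 and 12 Mb they were 135, 95.2 and 29.1. Between 16 and 17 Mb, where SNPs were densest, pseudogenes held 130 (62.5 to 240), protein-coding genes 135 (103 to 174) and sequence outside genes 263 (218 to 314). Clumped SNPs make all these intervals too narrow, and differences between the classes were not tested. Counts in pseudogenes are uncertain where near-identical copies share reads.

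The same classes ran closer together around the other centromeres. On chromosome 2 pseudogenes held 549 SNPs per Mb (511 to 588), above the 427 (398 to 457) of sequence outside genes. On chromosome 5 the values were 803 (757 to 850) and 831 (793 to 872), and on chromosome 4 they were 646 (603 to 691) and 877 (836 to 919). Sequence outside genes thus held fewer SNPs per Mb than pseudogenes on chromosome 2, about as many on chromosome 5, and more on chromosomes 4 and 3.

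The share of SNPs inside protein-coding genes was compared with each of these pericentromeres. It was 23.8% in the stretch (146 of 614), 13.9% on chromosome 2 (264 of 1894), 17.5% on chromosome 4 (555 of 3176) and 10.3% on chromosome 5 (338 of 3269). The stretch was higher in each case (Fisher exact test, two-sided, with Benjamini-Hochberg adjustment over 3 comparisons, p = 4.23e-08, p = 0.000339 and p = 3.21e-17). Protein-coding genes also covered more of it, 21.6% of bases against 14.9%, 16.6% and 10.8%. The test does not take this into account, so it cannot separate the share of SNPs from the share of bases. Limited to its own 4 Mb around the centromere, an alternative chosen after the data were seen, the share was 10.3% (22 of 213) on 9.83% of bases. It was then lower than on chromosome 4 (adjusted p = 0.0184) and not shown to differ from chromosome 2 (adjusted p = 0.255) or chromosome 5 (adjusted p = 1), by the same Fisher exact test. With 3 Mb on either side of the other centromeres the stretch was 2.79 points above chromosome 2 (Fisher exact test, adjusted p = 0.194), -0.669 points from chromosome 4 (adjusted p = 0.764) and 4.66 points above chromosome 5 (adjusted p = 0.0211). The order thus depended on the bounds for chromosomes 2 and 4, and for chromosome 5 it was lost in the narrower stretch. At the first bounds, thinned to at most 1 SNP per 1 kb, the stretch was again higher than chromosomes 2, 4 and 5. The Fisher exact test then gave adjusted p = 0.000901, p = 0.0164 and p = 1.09e-09. SNPs of a clump are inherited together and are not independent, so these p-values are too small.

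Over the 14 windows of 500 kb of the stretch, SNP counts followed the number of protein-coding genes (Spearman rho 0.874, Pearson r 0.880). Neighbouring windows share their chromosome and place, and both counts are lowest at the centromere. Along the rest of the chromosome rho was -0.467 over 20 windows before 10 Mb and 0.221 over 12 windows from 17 Mb. Over 8 windows within 2 Mb of the centromere, rho was 0.703 on chromosome 3, 0.905 on chromosome 5, 0.286 on chromosome 4 and -0.262 on chromosome 2. Windows of chromosome 5, with 6 to 55 protein-coding genes, held 287 to 600 SNPs, and windows of the stretch, with 1 to 120, held 10 to 108. The stretch was chosen by its low SNP density, which these SNP counts measure. The difference therefore follows from that choice and was not tested.

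The genes with the most listed SNPs lay outside the core, at least 2.02 Mb from the rounded centromere position. So did most protein-coding genes with any SNP, of which 20 of 105 lay within 2 Mb of that position. The 10 highest counts took in 11 genes because of ties. They are ranked by count, which is not scaled to gene length. TBL22 (AT3G28150), also called AXY4L, of a family of enzymes that acetylate cell wall polysaccharides, held 5, or 2.37 per kb. The serine carboxypeptidase-like gene scpl48 (AT3G45010) also held 5, or 1.76 per kb. GC6 (AT3G27530), or MAG4, a golgin-type tether of transport between the endoplasmic reticulum and the Golgi, held 4, or 0.609 per kb. CEF (AT3G44340), related to the Sec24 coat proteins of transport vesicles, held 4, or 0.455 per kb. By rate, AT3G45670 was above TBL22, with 2.63 per kb. AT3G27400, AT3G27610, AT3G27860, AT3G28220, AT3G45670, AT3G45750 and the pseudogene AT3G45253 held 3 each. Of these 11 genes, 6 lay on the left side and 5 on the right. No gene of the stretch came near the 36 SNPs of the fullest gene of the genome.

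Among the 3 largest clusters, each on the left end of the stretch, the first held mostly SNPs in genes and the others mostly SNPs between them. The largest had 23 SNPs over 72.6 kb, from 10136661 to 10209228, with 16 of them in protein-coding genes. It ran through GC6 with 4 SNPs, AT3G27400 with 3, AT3G27550 with 2, and PBB1, a beta subunit of the proteasome, with 1. The next had 17 SNPs over 53.9 kb, from 10358741 to 10412669, of which 12 lay outside genes. It held 2 in DEG1, a protease of the chloroplast thylakoid, and 0 in MYB0, the trichome regulator GLABRA 1, in LBD26 and in the sugar transporter gene SWEET4. The third had 16 SNPs over 71.8 kb, from 10693366 to 10765120, of which 14 lay outside genes. Its 19 protein-coding genes held 2 in all, in AT3G28620 and AT3G28690. It tied with a pair of clusters on the right end, from 16347956 and from 16537141, which also held 16 SNPs each.

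The named gene lists were short, and most of their members held no SNP, as was so for the protein-coding genes of the stretch. All 25 members were found in the stretch, and 5 held a SNP, or 20%, beside the 13.98% of all its protein-coding genes. The median was 0 in both. Among 4 resistance genes of the RPP1 cluster, immune receptors that recognise downy mildew, RPP1 (AT3G44480) held 2 SNPs. AT3G44400, AT3G44630 and AT3G44670 held 0, although AT3G44630 had 2 and AT3G44400 had 1 when 1 kb on each side was included. These are near-identical copies in part, so their counts are uncertain.

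Of 6 auxin genes, 1 held a listed SNP. NIT1 (AT3G44310), a nitrilase that can form the auxin indole-3-acetic acid from its nitrile, held 1, and its neighbours NIT2 and NIT3 held 0, with 2 SNPs within 1 kb of NIT3. The auxin efflux transporter gene ABCB19 (AT3G28860) held 0, and its nearest SNP was 1.08 kb away. AAO2, an aldehyde oxidase gene, was 22.3 kb from the nearest SNP, and LBD25, of the LBD transcription factor family, was 5.84 kb from it. No allele or effect is given for the NIT1 position, so it is no evidence that the gene was altered in the screen.

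Of 3 fatty acyl reductase genes that make the fatty alcohols of suberin and related surface lipids, FAR5 and FAR8 held 1 SNP each and FAR4 held 0. Of 12 genes of signalling, development and chromatin, HIRA, a histone chaperone gene, held 1. The other members held 0. They were the transcription factor gene MYB30, the SnRK1 kinase gene KIN11, BR6OX2 of brassinosteroid synthesis, ERD5, the sucrose synthase gene SUS4, HDA3 (a histone deacetylase gene), ACD1 of chlorophyll breakdown, LOX2 of jasmonate synthesis, the kinase genes MPK3 and PHOT1 (a blue light receptor), and HMG, which encodes the histone chaperone SSRP1. The nearest SNP was 0.206 kb from MPK3 and 21.7 kb from ERD5.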

How the data were processed

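The deposited table gives a chromosome number and a base position per listed SNP, per the file headers. Positions refer to TAIR10, per the submitters' processing notes, and the design text of the series names SNPtrack as the authors' pipeline. Which aligner and thresholds were used, and what made a site homozygous, is not given in the sources used here, nor is any depth. In the position columns 5 cells held no number and were left out. SNPs were counted in windows of 250 kb and 500 kb with exact Poisson intervals, and shares carry exact Clopper-Pearson intervals, all at 95%. Rounded centromere positions were 4, 14, 4 and 12 Mb for chromosomes 2, 3, 4 and 5. Each base was assigned to a protein-coding gene, else a pseudogene, else another gene, else none, using RefSeq genes of TAIR10.1, which shares its nuclear chromosomes with TAIR10. As a check over the whole list, 44.4% of SNPs lay in protein-coding genes, against 48.0% to 51.2% when positions were shifted by 1, 3 or 10 kb in either direction. The edge measure was tested on simulated lists with sharp edges and known bounds, which do not cover a gradual side. Clusters and thinning were checked on a short list with a known answer. Named genes were the 10 with the most SNPs, members of 4 short lists, and genes at the ends of the stretch, at its 3 longest gaps and in its 3 largest clusters. The members, bounds and lists were chosen with earlier results of these data known. A planned Fisher test of neighbours within 100 bp is not given because that share depends on density. Python 3.11.15, pandas 2.3.3, numpy 2.4.6, scipy 1.17.1 and matplotlib 3.10.9 were used.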

Additional observations from a re-analysis of the deposited data

How the results depend on the processing

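No paired analysis was possible because the list names no sample. The density of the stretch was 68.7 SNPs per Mb when thinned to at most 1 SNP per 1 kb, 73.7 with bounds moved inward by 0.5 Mb and 130.25 with bounds moved outward, which takes in dense sequence of the left flank. The left edge lay between 3.5 and 4.25 Mb and the right edge between 1.5 and 2.25 Mb from the centromere under all settings run. The left over right ratio was 0.769 with the centromere 0.5 Mb further left and 0.517 with it 0.5 Mb further right. There were 5 gaps of 100 kb or more, and 33 of 50 kb or more without the 83 SNPs that had no neighbour within 10 kb; the longest gap was the same. Clusters numbered 315 when broken at 5 kb and 95 at 20 kb. The share with a neighbour within 100 bp, stretch over chromosome 5, was 0.421 and became 0.50 at 50 bp. Thinning gave 229, 44.75, 325.5 and 320.25 SNPs per Mb around the centromeres of chromosomes 2, 3, 4 and 5. Within 1 Mb chromosomes 3, 4 and 5 held 40, 610 and 639 per Mb, and within 3 Mb chromosome 3 held 78.2. The chromosome 3 value was the lowest of the 4 in each setting. With 3 Mb pericentromeres, the share of SNPs in protein-coding genes exceeded that of chromosome 2 by 2.79 points (Fisher exact test, adjusted p = 0.194) and was -0.669 points from that of chromosome 4 (adjusted p = 0.764). Limiting the stretch to its own 4 Mb, chosen after seeing the data, gave -3.61, -7.15 and -0.0109 points against chromosomes 2, 4 and 5. In both cases the share of bases in genes changes with the bounds. Protein-coding genes with a SNP were 34.1% with 1 kb on each side. Alternatives on reference bases and unique sequence were not run because no genome sequence was used here.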
